A study of Mus musculus with 15 samples.

Results

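Tim-4+CD4+ macrophages of the mouse small intestine were compared with Tim-4-CD4- macrophages of the same organ, the subsets that the study placed at the long-lived and the monocyte-replenished ends of the gut macrophage pool. The 8 libraries were taken by their labels, 4 of each subset, out of 15 in the series. All came from adult male wild-type C57BL/6 mice with no treatment named, and every library was made from the cells of 3 pooled mice, so that no value belongs to 1 animal. Cells were sorted from digested gut tissue as CD45+CD11b+CD64+MHCII+ macrophages, and were then divided by surface Tim-4 and CD4. Ly6C-expressing cells were removed in the sort, as were lymphocytes and granulocytes that carry TCRβ, B220, Siglec F or Ly6G. The remaining libraries, 4 of Tim-4-CD4+ macrophages and 3 of Ly6Chi blood monocytes, helped to estimate the spread between replicates and enter no comparison here.

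Macrophages of the gut wall take up dying epithelial cells and bacteria, present antigen and hold back inflammation, and many of them are replaced throughout life by Ly6C-high monocytes that leave the blood by means of the chemokine receptor CCR2. Tim-4, encoded by *Timd4*, binds phosphatidylserine on the surface of dying cells and marks long-lived resident macrophages in several tissues, whereas CD4 is best known as the coreceptor of helper T cells. Values are given by function, from uptake and residence to recruitment, division, inflammation, receptors, metabolism and contact with the tissue.

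Messenger RNA was sequenced from both subsets with a strand-specific kit and is given as counts of a gene per 1000000 counts of its library (CPM), scaled between libraries by the trimmed mean of M values (TMM). The 4 Tim-4+CD4+ libraries held 59404864 to 116123886 counts in genes and the 4 Tim-4-CD4- libraries 39388763 to 63924096. In the text, 4 values of a subset stand in the order of its replicate numbers 1 to 4, a pair of values joined by "against" is the mean ± SD of the Tim-4+CD4+ libraries (n = 4) and of the Tim-4-CD4- libraries (n = 4), and a log2 fold change is Tim-4+CD4+ minus Tim-4-CD4- ± its standard error. A gene is called higher or lower only where its adjusted p was under 0.05 in edgeR's quasi-likelihood test over all genes. Since each library is a bulk of sorted cells, fewer cells of a type and less RNA per cell cannot be told apart. The labels number the pools but do not say that the cells of 1 number were sorted together. The root mean square difference in log2 CPM was 0.710 to 0.827 between a library and the others of its subset and 0.979 to 1.14 between it and the libraries of the other subset, and none lay nearer to the other subset than to its own.

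The genes of the sort followed the labels. *Timd4* (chr11:46810800-46844332), *Cd4* (chr6:124864692-124888221), *Ccr2* (chr9:124101950-124113557) and *Adora2b* (chr11:62248984-62266453) are given first, with their GRCm38 positions. *Timd4* was at 389.9, 336, 359 and 337 CPM in the Tim-4+CD4+ libraries and at 0.566, 0.151, 2.93 and 0.802 CPM in the Tim-4-CD4- libraries (log2 fold change 8.37 ± 0.74). *Cd4* was at 755, 752, 924 and 832 CPM in the Tim-4+CD4+ libraries and at 14.5, 17.1, 39.2 and 20.7 CPM in the Tim-4-CD4- libraries (log2 fold change 5.16 ± 0.26). In both genes every Tim-4+CD4+ library lay above every Tim-4-CD4- library, and Tim-4-CD4- replicate 3 was the highest of its subset. *Ccr2* was at 6.98, 15.8, 5.92 and 4.84 CPM in the Tim-4+CD4+ libraries and at 759, 510.2, 688 and 683 CPM in the Tim-4-CD4- libraries (log2 fold change -6.28 ± 0.35), and here every Tim-4+CD4+ library lay below every Tim-4-CD4- library, with Tim-4+CD4+ replicate 2 the highest of its own. *Adora2b*, a receptor for adenosine, had 0, 7, 0 and 0 counts in the Tim-4+CD4+ libraries and 72, 99, 105 and 56 in the Tim-4-CD4- libraries, so that its few counts in Tim-4+CD4+ cells lay in 1 library. With that library left out, no count was left, and *Adora2b* was at least 39.4-fold lower when 3 counts per library are taken as the floor. The general macrophage genes *Adgre1* (984 ± 107 against 1074 ± 124 CPM), *Fcgr1* (268 ± 31.2 against 300.0 ± 13.3 CPM), which encodes the CD64 of the gate, and *Cx3cr1* (991 ± 125 against 900.4 ± 156 CPM) did not pass the test. *Ly6c2*, the monocyte marker kept out by the gate, stood at 0.726 ± 0.217 against 1.72 ± 0.294 CPM (log2 fold change -1.22 ± 0.51, adjusted p = 0.098). With Tim-4-CD4- replicate 3 left out, the log2 fold change of *Timd4* was 9.55.

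**Figure D1:**
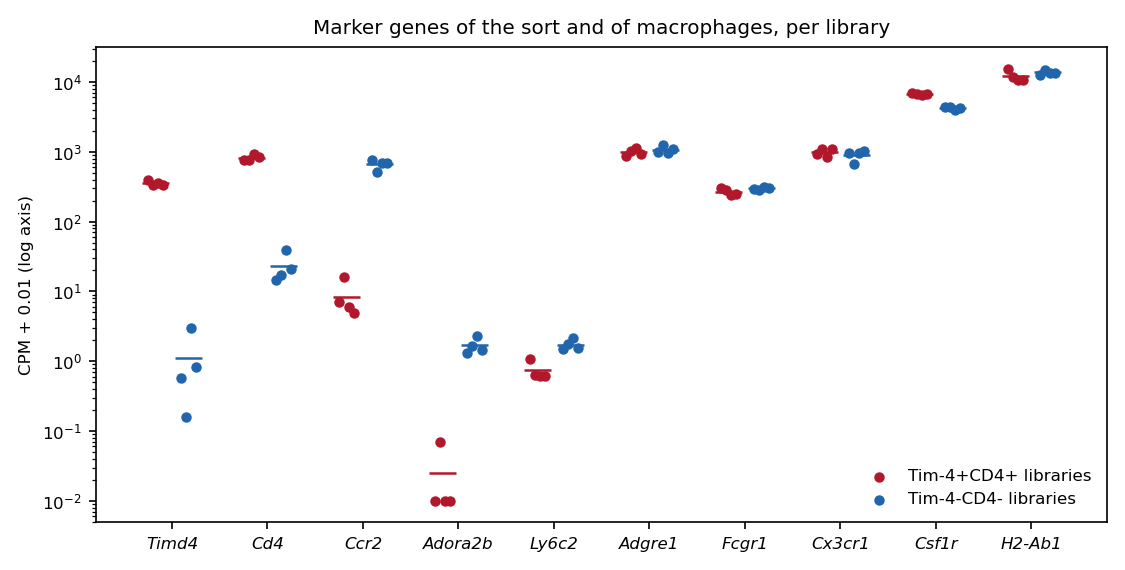
CPM of 10 marker genes (plus 0.01, log axis) in the 8 libraries, 4 of each subset and 1 point per library, with a line at the mean of each subset. Timd4 and Cd4 are separated upwards and Ccr2 and Adora2b downwards in every Tim-4+CD4+ library, while the points of Adgre1, Fcgr1 and Cx3cr1 lie at one height.

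Of 15802 genes tested, 3656 (23.1%) differed between the subsets, 1781 (11.3%) with higher and 1875 (11.9%) with lower levels in Tim-4+CD4+ macrophages. The counts of called members of each gene list below are to be read beside these shares. The median log2 fold change over all genes tested was -0.00475. The median higher gene differed 1.73-fold and the median lower gene 1.56-fold. Among large differences, 310 genes were at least 4-fold higher and 220 at least 4-fold lower, and 136 against 80 were at least 8-fold apart. The libraries of the subsets did not overlap in 1543 of the 1781 higher genes (86.6%) and in 1686 of the 1875 lower genes (89.9%), against 26.4% of all genes tested. Long noncoding genes were called higher in 10.4% and lower in 4.11% of 1070 tested, whereas protein-coding genes were called higher in 12.1% and lower in 13.3% of 13440. A pair of libraries bore most on the counts: without Tim-4-CD4- replicate 3 the calls fell to 1442 higher and 1445 lower, and without Tim-4+CD4+ replicate 1 they came to 1852 and 1947.

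**Figure D2:**
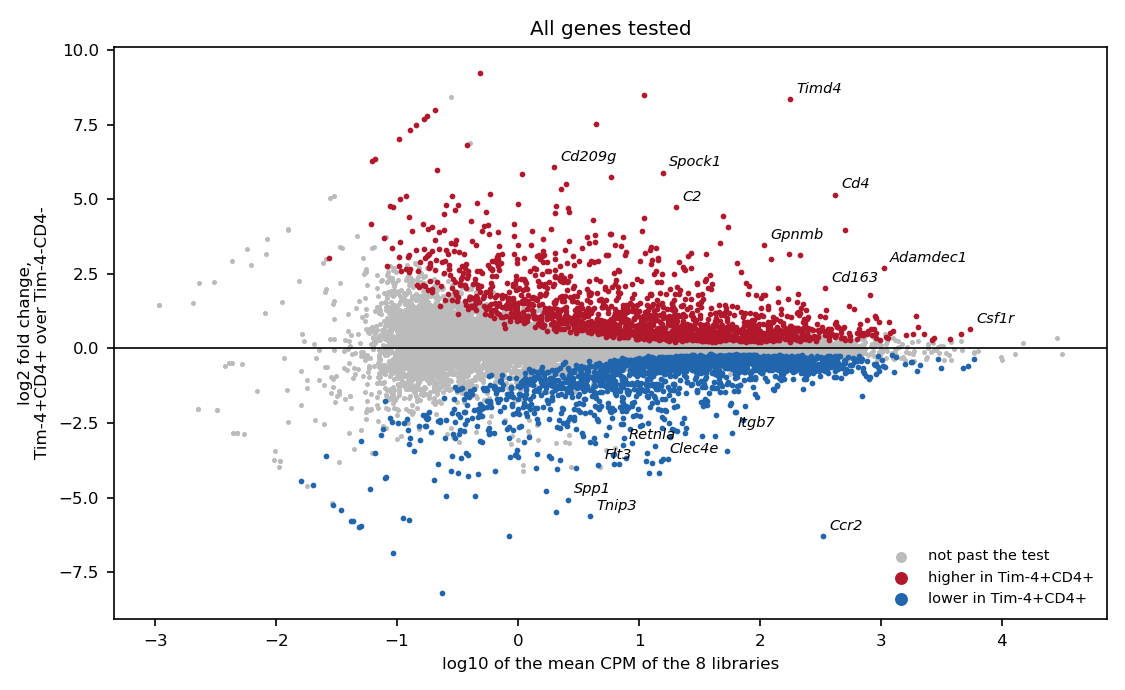
Each point is a gene, with the log10 of its mean CPM over the 8 libraries on the horizontal axis and its log2 fold change (Tim-4+CD4+ over Tim-4-CD4-) on the vertical axis, and with genes past the test in red (higher) and blue (lower). Timd4 and Cd4 stand above and Ccr2 below the bulk of genes at their level, and 9 tested genes without a count in the 8 libraries are not drawn.

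**Figure D3:**
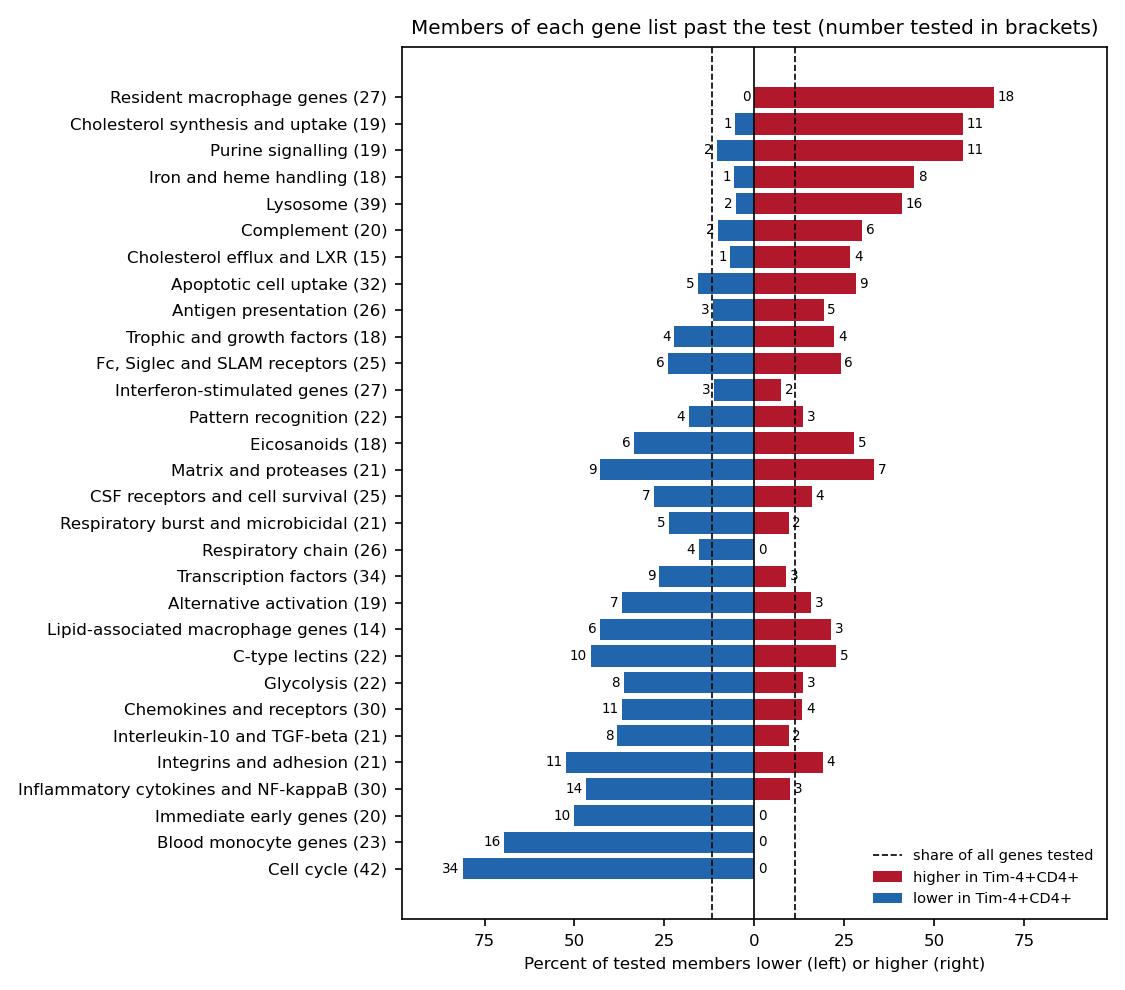
Bars give the percent of tested members of 30 gene lists that were higher (red) or lower (blue) in Tim-4+CD4+ macrophages, with the number at the bar's end, and dashed lines give the share of all genes tested, 11.3% higher and 11.9% lower. Resident macrophage genes, cholesterol synthesis and purine signalling lie at the top with 18 of 27, 11 of 19 and 11 of 19 higher, and blood monocyte and cell cycle genes at the foot with 16 of 23 and 34 of 42 lower. The resident macrophage genes include Timd4, a gene of the sort, and Cd209f, Fcna, Xlr and C2, named by the study from these libraries. The purine genes include Adcy3 and P2ry2, named in the same way.

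Apart from *Timd4* and *Cd4*, the genes furthest above Tim-4-CD4- cells included genes of surface receptors and secreted proteins. The long noncoding RNA *2900052N01Rik* (chr9:46913493-46927366, 22.2 ± 5.31 against 0.0600 ± 0.0379 CPM) was followed by the zinc finger gene *Zfp641* (8.76 ± 1.69 against 0.0469 ± 0.0715 CPM, log2 fold change 7.54 ± 0.59). The testican gene *Spock1*, which encodes a proteoglycan of the matrix, came to 23.5, 29.5, 35.8 and 34.9 CPM in the Tim-4+CD4+ and to 0.310, 0.385, 0.388 and 1.09 CPM in the Tim-4-CD4- libraries (log2 fold change 5.89 ± 0.32, adjusted p = 8.3e-09). *Fzd8*, a Wnt receptor (4.41 ± 1.17 against 0.114 ± 0.101 CPM), *Fstl4*, a follistatin-like protein (4.88 ± 1.38 against 0.113 ± 0.0952 CPM, log2 fold change 5.51 ± 0.62), and *Angptl7*, an angiopoietin-like protein (4.01 ± 1.10 against 0.148 ± 0.0764 CPM), were low in both subsets but separated in every library. *Hpdl*, which encodes a mitochondrial dioxygenase-like enzyme, had 1, 2, 2 and 2 counts in the Tim-4-CD4- libraries against 67 to 338 counts in the Tim-4+CD4+ libraries (2.12 ± 0.945 against 0.0367 ± 0.0144 CPM, log2 fold change 5.84 ± 0.68). In a fit without Tim-4-CD4- replicate 3, the log2 fold change of *Zfp641* was 9.24, with 2 counts left in the other Tim-4-CD4- libraries. Without Tim-4-CD4- replicate 4, the log2 fold change of *Fstl4* was 6.11.

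Genes of signalling, lipid handling and cell contact were among those furthest below Tim-4-CD4- cells. *Tnip3* was at 0.0876, 0.181, 0.322 and 0.0332 CPM in the Tim-4+CD4+ libraries and at 8.67, 5.83, 9.05 and 7.32 CPM in the Tim-4-CD4- libraries, and this gene, an inhibitor of NF-kappaB signalling, was lower in Tim-4+CD4+ cells (log2 fold change -5.63 ± 0.55, adjusted p = 1.3e-06). *Spp1*, which encodes osteopontin, was at 0.292, 0.00861, 0.129 and 0.166 CPM in Tim-4+CD4+ and 6.06, 5.46, 3.62 and 4.81 CPM in Tim-4-CD4- libraries (log2 fold change -5.07 ± 0.63, adjusted p = 1.7e-05). In both, every Tim-4+CD4+ library lay below every Tim-4-CD4- library. The regulator of G-protein signalling *Rgs18* (0.0841 ± 0.0358 against 4.03 ± 0.722 CPM), the Wnt ligand *Wnt11* (0.122 ± 0.116 against 3.30 ± 0.532 CPM, log2 fold change -4.79 ± 0.53) and the kinase gene *Lrrk2* (0.791 ± 0.144 against 11.6 ± 2.33 CPM) followed. So did the phospholipid flippase gene *Atp8b4* (1.25 ± 0.471 against 22.8 ± 3.03 CPM), the GM3 ganglioside synthase *St3gal5* (0.347 ± 0.0527 against 5.70 ± 1.28 CPM) and *Alcam*, an adhesion molecule of leukocytes (1.52 ± 0.343 against 27.7 ± 3.60 CPM). *Nat8l*, the synthase of N-acetylaspartate (0.241 ± 0.0892 against 3.95 ± 0.555 CPM), and *Haao* of the kynurenine route of tryptophan breakdown (0.160 ± 0.0520 against 2.68 ± 1.27 CPM) completed the 12 largest decreases among genes with a mean of at least 1 CPM over the 8 libraries, together with *Ccr2* and *Flt3*. With Tim-4+CD4+ replicate 1 left out, the log2 fold change of *Spp1* was -5.76. In a fit without Tim-4+CD4+ replicate 3, the log2 fold change of *Wnt11* was -5.53. Without Tim-4-CD4- replicate 3, the log2 fold change of *Flt3* was -3.26.

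Several receptors for dying cells were higher besides Tim-4. Of 32 tested genes of apoptotic cell uptake, 9 were higher and 5 lower in Tim-4+CD4+ macrophages (median log2 fold change 0.21), among them 5 higher and 1 lower of 14 receptors. Both counts of higher genes include *Timd4*, whose protein was used to divide the cells. Stabilin-2, a phosphatidylserine receptor encoded by *Stab2*, was at 9.21, 7.94, 17.2 and 8.53 CPM in the Tim-4+CD4+ libraries and at 0.511, 1.26, 0.798 and 0.414 CPM in the Tim-4-CD4- libraries (log2 fold change 3.82 ± 0.40, adjusted p = 7.0e-06). Every Tim-4+CD4+ library lay above every Tim-4-CD4- library, and the Tim-4+CD4+ libraries were themselves uneven, with replicate 3 the highest. Its relative *Stab1* (2539 ± 119 against 1524 ± 165 CPM, log2 fold change 0.74 ± 0.09, adjusted p = 2.5e-05) and the TAM receptor *Mertk* (199 ± 22 against 111 ± 13.7 CPM, log2 fold change 0.84 ± 0.16, adjusted p = 0.00076) differed by less. The TAM receptor *Axl* stood at 860.4 ± 55.6 against 812 ± 42.3 CPM (log2 fold change 0.08 ± 0.12, adjusted p = 0.67). The scavenger receptor *Cd36* was lower (96.9 ± 14.4 against 154 ± 17.2 CPM, log2 fold change -0.67 ± 0.12, adjusted p = 0.00069).

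The bridging proteins that tie phosphatidylserine to a receptor were higher in 3 and lower in 1 of 8 tested. *Mfge8*, a bridge to integrins, was at 42.8, 33.7, 24.5 and 35.4 CPM in the Tim-4+CD4+ libraries and at 14.3, 10.8, 11.9 and 12.3 CPM in the Tim-4-CD4- libraries (log2 fold change 1.47 ± 0.14, adjusted p = 7.5e-07). *Edil3*, built like *Mfge8*, was at 7.96 ± 1.41 against 0.389 ± 0.339 CPM (log2 fold change 4.31 ± 0.43, adjusted p = 1.7e-06). *Gas6*, the ligand of *Mertk*, was at 222 ± 14.9 against 133 ± 12.2 CPM (log2 fold change 0.74 ± 0.11, adjusted p = 8.9e-05). All of these were higher in Tim-4+CD4+ cells. Annexin A1, a mediator that dampens neutrophil entry and is encoded by *Anxa1*, was lower, at 1.86 ± 0.532 against 21.6 ± 2.86 CPM (log2 fold change -3.52 ± 0.18, adjusted p = 1.1e-09). *P2ry2*, which senses nucleotides released by dying cells, was higher at 11.9, 11.8, 9.12 and 10.1 CPM against 3.92, 3.85, 3.73 and 4.24 CPM (log2 fold change 1.44 ± 0.13, adjusted p = 5.1e-07). *Gpr132*, a receptor for lysophospholipids, was lower (168 ± 40.5 against 263 ± 33.9 CPM, log2 fold change -0.65 ± 0.14, adjusted p = 0.0027). *Timd4*, *Edil3* and *P2ry2* had been named by the study from these libraries, so their direction is not independent evidence. The count of lower members was 3 without Tim-4-CD4- replicate 1 or 2. With Tim-4-CD4- replicate 2 left out, the log2 fold change of *Edil3* was 5.14.

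Genes that mark resident macrophages in other tissues were higher in 18 and lower in 0 of 27 tested (median log2 fold change 1.25). The 18 include *Timd4*, whose protein was used to divide the cells. They also include *Cd209f*, *Fcna*, *Xlr* and *C2*, which the study had named from these libraries, so the count is not independent evidence for these genes. *Cd163*, the scavenger receptor for haemoglobin, was at 397, 505, 793 and 513 CPM in Tim-4+CD4+ and 101, 142, 163 and 139 CPM in Tim-4-CD4- libraries (log2 fold change 2.01 ± 0.19, adjusted p = 1.1e-06). *Slc40a1* was at 208, 221, 232 and 213 CPM in the Tim-4+CD4+ libraries and at 25, 30.1, 28.9 and 24.3 CPM in the Tim-4-CD4- libraries (log2 fold change 3.01 ± 0.13, adjusted p = 3.5e-10). *Slc40a1* encodes ferroportin, the exporter of iron, and in both genes every Tim-4+CD4+ library lay above every Tim-4-CD4- library. *Folr2*, a folate receptor, was higher at 18.8 ± 4.82 against 7.94 ± 1.30 CPM (log2 fold change 1.25 ± 0.22, adjusted p = 0.00044). *Lyve1*, a hyaluronan receptor of perivascular macrophages, was higher as well, with 19.3, 17.7, 37.2 and 18 CPM against 5.11, 14.5, 8.0 and 7.66 CPM (log2 fold change 1.38 ± 0.38, adjusted p = 0.013), and Tim-4+CD4+ replicate 3 held the highest value. The mannose receptor gene *Mrc1* (1083 ± 234 against 1119.6 ± 23.4 CPM) and *Siglec1* (382 ± 95.2 against 312 ± 40.5 CPM) did not pass. In a fit without Tim-4+CD4+ replicate 3, *Lyve1* did not pass (log2 fold change 1.07, adjusted p = 0.052).

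Of 12 secreted and other products of this list, 8 were higher and 0 lower. *Igf1*, the insulin-like growth factor that supports epithelium and neurons, came to 74.1, 86.9, 97.9 and 81.2 CPM in the Tim-4+CD4+ and to 27.9, 33.7, 32.4 and 32.4 CPM in the Tim-4-CD4- libraries (log2 fold change 1.43 ± 0.15, adjusted p = 3.0e-06). *Ccl24*, which draws eosinophils, was at 136, 117, 104 and 119 against 21.2, 17.6, 20 and 21.8 CPM (log2 fold change 2.56 ± 0.18, adjusted p = 3.9e-08). For both, every Tim-4+CD4+ library lay above every Tim-4-CD4- library. The ficolin gene *Fcna*, a soluble pattern receptor of the lectin pathway, was at 22.6 ± 6.75 against 2.30 ± 0.745 CPM (log2 fold change 3.29 ± 0.34, adjusted p = 2.2e-06). *Xlr*, a gene of the X-linked lymphocyte-regulated family, was at 33.2 ± 2.89 against 5.84 ± 1.63 CPM (log2 fold change 2.51 ± 0.25, adjusted p = 1.6e-06). *Hpgd*, the enzyme that inactivates prostaglandins, was at 167 ± 16.7 against 106 ± 9.54 CPM (log2 fold change 0.65 ± 0.12, adjusted p = 0.00060). The secreted proteins encoded by *Pf4* (164 ± 27.4 against 136 ± 8.0 CPM, log2 fold change 0.27 ± 0.13, adjusted p = 0.15) and *F13a1* (45.6 ± 12.7 against 59.1 ± 13.2 CPM, log2 fold change -0.37 ± 0.28, adjusted p = 0.37) did not pass. *Timd4*, *Cd209f*, *Fcna*, *Xlr* and *C2* had been named by the study from these libraries, so their direction is not independent evidence. *Igf1* is also made by mesenchymal cells, whose marker RNA was counted in both subsets although the cells were gated on CD45 and CD11b. The summed levels of 8 mesenchymal marker genes were higher as well in Tim-4+CD4+ libraries, at 115 to 170.0 CPM against 72.9 to 107 CPM. Of these markers 4 were called higher and 0 lower, and the part of such cells in these differences was not tested.

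**Figure D4:**
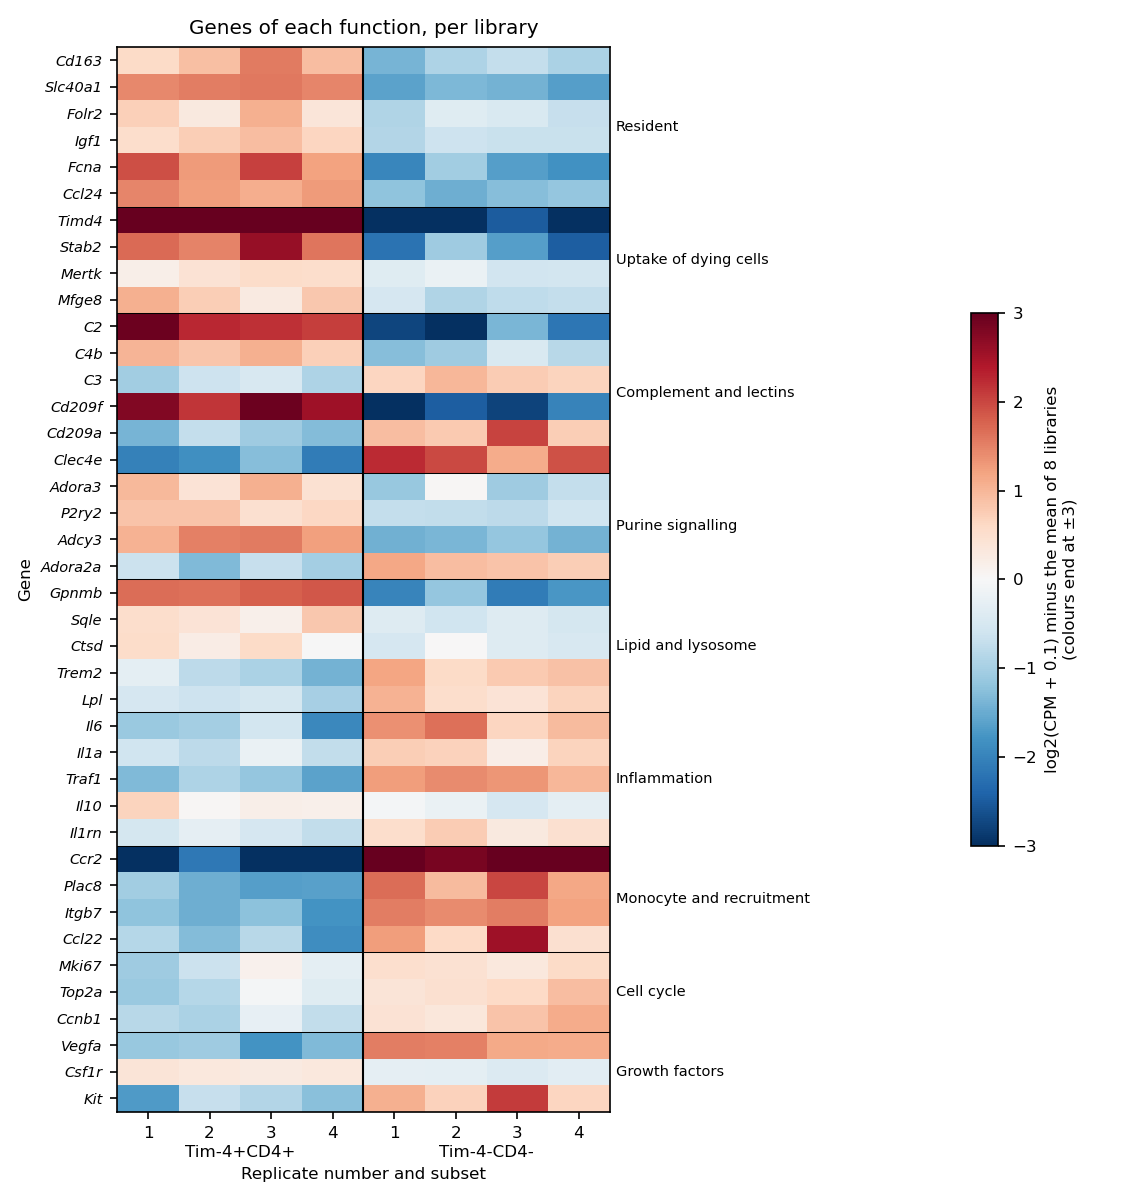
Each row is a gene and each column a library (4 Tim-4+CD4+ on the left, 4 Tim-4-CD4- on the right), coloured by its log2(CPM + 0.1) minus the mean of the 8 libraries, with colours ending at 3 units either way. Red on the left and blue on the right marks resident, uptake and most purine genes, the reverse marks monocyte, inflammatory and cell cycle genes, and Ccl22 and Kit are darkest in Tim-4-CD4- replicate 3.

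Genes of circulating monocytes were lower in Tim-4+CD4+ cells in 16 of 23 tested and higher in 0 (median log2 fold change -1.51). The 16 include *Ccr2*, a marker given with the comparison. *Plac8*, which is strongly expressed by Ly6Chi monocytes, was at 9.91, 7.40, 6.53 and 6.57 CPM in the Tim-4+CD4+ and 65.6, 40.2, 83.1 and 46.3 CPM in the Tim-4-CD4- libraries (log2 fold change -2.95 ± 0.24, adjusted p = 2.1e-07). *Clec4e*, which encodes the glycolipid receptor Mincle, was at 1.86, 2.15, 3.20 and 1.79 against 37.9, 31.9, 17.4 and 30.1 CPM (log2 fold change -3.71 ± 0.25, adjusted p = 2.1e-08). In both genes every Tim-4+CD4+ library lay below every Tim-4-CD4- library. The lysozyme gene *Lyz1* (6.74 ± 1.23 against 38.6 ± 8.24 CPM, log2 fold change -2.51 ± 0.18, adjusted p = 4.0e-08) and the haptoglobin gene *Hp* (0.279 ± 0.0198 against 1.74 ± 0.144 CPM, log2 fold change -2.64 ± 0.55, adjusted p = 0.0022) were lower. *Lyz2*, the lysozyme gene of all myeloid cells, was lower by less (4206 ± 596 against 6364 ± 502 CPM, log2 fold change -0.60 ± 0.10, adjusted p = 0.00043). *Lyz1* and *Lyz2* resemble each other closely in sequence, and only uniquely mapped reads were counted, so the split between them is uncertain.

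Molecules that let monocytes roll and stick were lower too. *Itga4*, the alpha-4 integrin chain, was at 214 ± 76.9 against 359 ± 26.8 CPM (log2 fold change -0.75 ± 0.21, adjusted p = 0.015). *Selplg*, the ligand of P-selectin, was at 108 ± 11 against 170.4 ± 9.56 CPM (log2 fold change -0.66 ± 0.11, adjusted p = 0.00022). The count of 16 lower members was the same when any 1 of the 8 libraries was left out.

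Cell cycle genes had the highest share of lower members among the 30 lists. Of 42 tested, 34 were lower in Tim-4+CD4+ macrophages and 0 were higher (median log2 fold change -0.73). Among genes of mitosis 19 of 20 were lower (median -1.04), among genes of DNA replication 12 of 15 (median -0.54), and among D-type cyclins and cell cycle inhibitors 3 of 7. The proliferation marker *Mki67* was at 28.7, 38.6, 65.7 and 49.2 CPM in the Tim-4+CD4+ and at 84.7, 81.8, 74.5 and 89.9 CPM in the Tim-4-CD4- libraries (log2 fold change -0.86 ± 0.21, adjusted p = 0.0065). *Top2a* was at 19.1, 22.8, 39.5 and 31.8 CPM in the Tim-4+CD4+ libraries and at 53.4, 57.8, 62 and 77.9 CPM in the Tim-4-CD4- libraries (log2 fold change -1.15 ± 0.19, adjusted p = 0.00034). *Top2a* encodes the topoisomerase that untangles chromosomes, and in both genes every Tim-4+CD4+ library lay below every Tim-4-CD4- library, although Tim-4+CD4+ replicate 3 came close to the lowest Tim-4-CD4- library.

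The mitotic cyclin gene *Ccnb1* (1.90 ± 0.468 against 5.14 ± 1.34 CPM, log2 fold change -1.43 ± 0.28, adjusted p = 0.0012), the spindle motor gene *Kif11* (5.89 ± 1.72 against 15 ± 2.73 CPM, log2 fold change -1.35 ± 0.21, adjusted p = 0.00020) and the spindle protein gene *Nusap1* (3.44 ± 1.2 against 9.28 ± 2.43 CPM, log2 fold change -1.43 ± 0.28, adjusted p = 0.0014) showed the largest differences of the mitosis group. The lower genes of the replication group included *Rrm2*, a subunit of ribonucleotide reductase (6.75 ± 0.844 against 16 ± 3.33 CPM, log2 fold change -1.24 ± 0.16, adjusted p = 2.9e-05). They also held *Uhrf1*, which keeps methylation through replication (10.7 ± 2.21 against 22.5 ± 2.31 CPM, log2 fold change -1.08 ± 0.19, adjusted p = 0.00046). The helicase subunit *Mcm2* differed by less (20.1 ± 3.07 against 30.7 ± 2.54 CPM, log2 fold change -0.61 ± 0.12, adjusted p = 0.00095). Of the genes that govern entry into the cycle, *Ccnd1* (56.1 ± 10.8 against 113 ± 26.1 CPM, log2 fold change -1.01 ± 0.18, adjusted p = 0.00066), *Ccnd3* (20.3 ± 5.11 against 38.9 ± 9.55 CPM, log2 fold change -0.94 ± 0.23, adjusted p = 0.0071) and the inhibitor *Cdkn2c* (6.32 ± 0.550 against 10.5 ± 0.467 CPM, log2 fold change -0.73 ± 0.16, adjusted p = 0.0024) were lower. The inhibitor *Cdkn1a* stood at 314 ± 36.8 against 303 ± 26 CPM (log2 fold change 0.05 ± 0.11, adjusted p = 0.79). With 1 library left out at a time, 28 to 33 of the list were lower, the fewest without Tim-4-CD4- replicate 4.

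**Figure D5:**
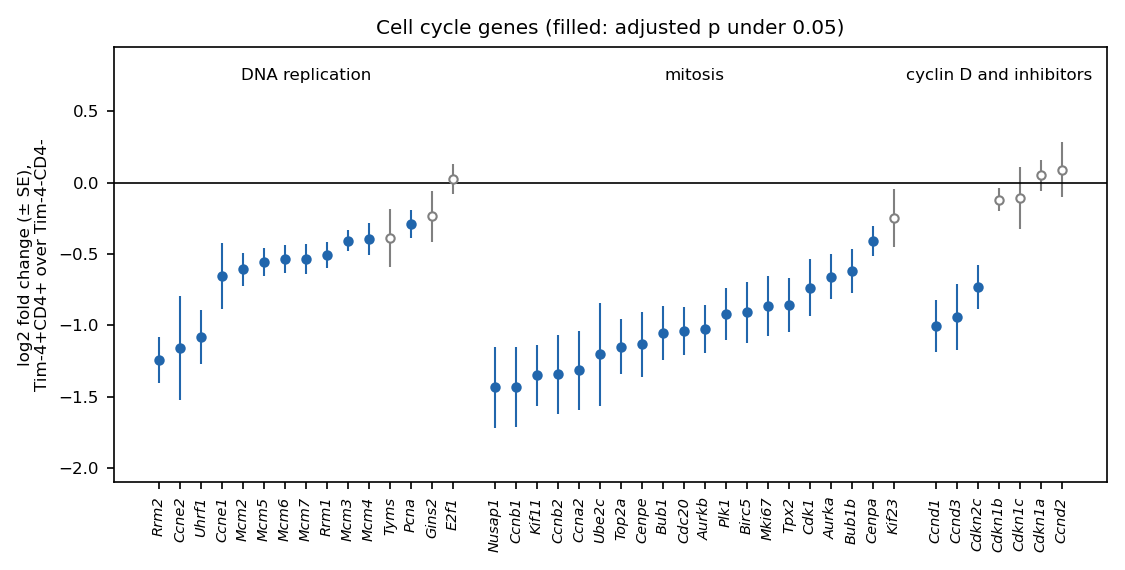
Log2 fold change (Tim-4+CD4+ over Tim-4-CD4-, ± SE) of the 42 tested cell cycle genes grouped by role, ordered within each group, with filled points for an adjusted p under 0.05. The filled points lie below 0 throughout, 19 of 20 in mitosis and 12 of 15 in DNA replication, and the D-type cyclins and inhibitors are divided.

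The promoters of mitosis genes are known for a pair of short elements, the CCAAT box and the cell cycle homology region (CHR), and are shown here because these genes had the highest share of lower members. In the 250 bases upstream of the annotated start (RefSeq windows, GRCm38.p6, either strand), CCAAT was found in 15 of 17 mitosis genes with a window (88.2%) and in 9 of 12 replication genes (75%), against 37.5% of all 27025 genes with a window and 40.0% of the 11142 tested ones. The CHR letters TTTGAA were found in 7 of 17 mitosis genes (41.2%), against 18.3% of all and 13.1% of tested genes. These are matches of letters, not sites shown to be used, and no test was made of them. Capitals mark both elements in 120 bases upstream of *Top2a* (chr11:99024190-99024309, minus strand), *Kif11* (chr19:37376262-37376381, plus strand) and *Ccnb1* (chr13:100786487-100786606, minus strand), which start 120 bases before the annotated start, and of *Mki67* (chr7:135716460-135716579, minus strand), which start 200 bases before it. In the *Ccnb1* stretch only CCAAT was found.
*Top2a*: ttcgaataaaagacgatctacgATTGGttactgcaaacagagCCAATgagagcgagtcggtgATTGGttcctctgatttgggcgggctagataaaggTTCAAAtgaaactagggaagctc
*Kif11*: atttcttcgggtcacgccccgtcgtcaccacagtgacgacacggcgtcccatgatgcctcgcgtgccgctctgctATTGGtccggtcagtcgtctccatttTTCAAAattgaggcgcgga
*Ccnb1*: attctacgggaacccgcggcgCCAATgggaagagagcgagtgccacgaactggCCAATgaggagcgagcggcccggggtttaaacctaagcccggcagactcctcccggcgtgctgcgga
*Mki67*: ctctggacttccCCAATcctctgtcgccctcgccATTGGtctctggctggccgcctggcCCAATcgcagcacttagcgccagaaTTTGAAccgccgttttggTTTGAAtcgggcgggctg

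Inflammatory cytokine and NF-kappaB genes were lower in Tim-4+CD4+ cells in 14 and higher in 3 of 30 tested (median log2 fold change -0.35). The cytokine *Il6* was at 0.905, 0.973, 1.37 and 0.464 CPM in the Tim-4+CD4+ and 5.48, 6.74, 3.26 and 4.04 CPM in the Tim-4-CD4- libraries (log2 fold change -2.39 ± 0.36, adjusted p = 0.00011). *Il1a* was at 28.4, 24.9, 37.2 and 25.7 against 71.8, 69.7, 48.7 and 68.1 CPM (log2 fold change -1.15 ± 0.15, adjusted p = 3.6e-05). In both, every Tim-4+CD4+ library lay below every Tim-4-CD4- library. *Tnf* was lower by less (110.1 ± 13.9 against 161 ± 11 CPM, log2 fold change -0.55 ± 0.10, adjusted p = 0.00082). *Il23a*, a subunit of interleukin-23, was low and lower still in Tim-4+CD4+ cells (0.569 ± 0.358 against 2.28 ± 0.503 CPM, log2 fold change -1.99 ± 0.51, adjusted p = 0.011). *Il1b* did not pass (2910.1 ± 455 against 3779 ± 334 CPM, log2 fold change -0.38 ± 0.19, adjusted p = 0.18). *Il27*, which restrains T cells, was higher (19.2 ± 3.19 against 10.4 ± 1.59 CPM, log2 fold change 0.89 ± 0.19, adjusted p = 0.0023). The count of higher members was 1 without Tim-4-CD4- replicate 1 or 3 or Tim-4+CD4+ replicate 1 or 4.

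Of 13 genes of NF-kappaB signalling and its feedback, 9 were lower and 1 higher. *Traf1*, an adaptor of TNF receptors that NF-kappaB induces, was at 3.33, 4.41, 3.71 and 2.72 CPM against 20.2, 22.6, 21.2 and 17 CPM (log2 fold change -2.51 ± 0.17, adjusted p = 1.7e-08). The inhibitor gene *Nfkbia* was lower as well (422 ± 78.6 against 720.1 ± 78.5 CPM, log2 fold change -0.77 ± 0.16, adjusted p = 0.0018). The feedback inhibitor *Tnfaip3* stood at 1118 ± 139.7 against 1403 ± 260.4 CPM (log2 fold change -0.33 ± 0.14, adjusted p = 0.11). The inflammasome receptor gene *Nlrp3* was lower (258 ± 16.2 against 403 ± 41.2 CPM, log2 fold change -0.64 ± 0.09, adjusted p = 4.4e-05). The lower genes comprised cytokines and also inhibitors of the same pathway, *Tnip3* and *Nfkbia* among them. *Traf1* had been named by the study from these libraries, so its direction is not independent evidence. Without Tim-4-CD4- replicate 3, *Tnfaip3* passed (log2 fold change -0.43, adjusted p = 0.039).

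Interleukin-10, the cytokine that keeps gut macrophages from inflaming the tissue, and the genes around it were called in both directions. Of 21 genes of the interleukin-10 and TGF-beta pathways, 2 were higher and 8 lower (median log2 fold change -0.11). *Il10* was at 162, 105, 117 and 114 CPM in the Tim-4+CD4+ libraries and at 99, 90, 72.5 and 83.5 CPM in the Tim-4-CD4- libraries (log2 fold change 0.53 ± 0.15, adjusted p = 0.014), so that every Tim-4+CD4+ library lay above every Tim-4-CD4- library and Tim-4+CD4+ replicate 1 was the highest. The interleukin-1 antagonist *Il1rn* was lower, at 103, 122, 103 and 88.2 against 212, 251, 179.7 and 206 CPM (log2 fold change -1.03 ± 0.16, adjusted p = 0.00015). The receptor chain *Il10ra* (648 ± 25.4 against 637 ± 62.4 CPM, log2 fold change 0.02 ± 0.10, adjusted p = 0.90), the ligand *Tgfb1* (925 ± 78.9 against 831 ± 15.1 CPM, log2 fold change 0.15 ± 0.08, adjusted p = 0.19) and its receptor *Tgfbr2* (424 ± 68.3 against 441 ± 15 CPM, log2 fold change -0.06 ± 0.11, adjusted p = 0.77) did not pass. Targets and regulators were lower, namely *Socs3* (528 ± 30.1 against 993 ± 69.9 CPM, log2 fold change -0.91 ± 0.11, adjusted p = 1.4e-05) and *Id3* (5.89 ± 0.865 against 24.6 ± 5.63 CPM, log2 fold change -2.06 ± 0.20, adjusted p = 1.1e-06). *Smad4*, the common signal carrier of the TGF-beta family, was lower too (41 ± 8.26 against 57.3 ± 4.13 CPM, log2 fold change -0.48 ± 0.12, adjusted p = 0.0064). The endothelial and macrophage coreceptor *Eng* was lower and its partner *Acvrl1* higher (57.8 ± 2.69 against 87 ± 8.13 CPM and 253 ± 20.9 against 196 ± 9.20 CPM). The count of higher members was 1 without Tim-4-CD4- replicate 3, and the count of lower members was 5 without Tim-4-CD4- replicate 1 or 2. With Tim-4-CD4- replicate 3 left out, *Il10* did not pass (log2 fold change 0.46, adjusted p = 0.053).

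Immediate early genes, which respond rapidly to growth factors and cytokines, were lower in 10 and higher in 0 of 20 tested (median log2 fold change -0.35). *Egr2* was at 72.9, 80.7, 97.8 and 73 CPM in Tim-4+CD4+ and 198, 207, 197 and 183 CPM in Tim-4-CD4- libraries (log2 fold change -1.27 ± 0.15, adjusted p = 6.9e-06). *Egr3* (8.68 ± 3.03 against 32.7 ± 4.38 CPM, log2 fold change -1.92 ± 0.24, adjusted p = 2.2e-05) and the phosphatase gene *Dusp2* (127 ± 34.1 against 325 ± 56.2 CPM, log2 fold change -1.35 ± 0.20, adjusted p = 9.4e-05) were lower with it. So were the AP-1 gene *Fosl2* (359 ± 39.3 against 642 ± 84.8 CPM, log2 fold change -0.84 ± 0.11, adjusted p = 4.7e-05) and the nuclear receptor gene *Nr4a1* (930.4 ± 126 against 1623 ± 197 CPM, log2 fold change -0.80 ± 0.15, adjusted p = 0.00072). *Egr1* was lower by less (2448 ± 433 against 3835 ± 297 CPM, log2 fold change -0.65 ± 0.13, adjusted p = 0.0021). The founding members *Fos* (6205 ± 288 against 6589 ± 611 CPM, log2 fold change -0.09 ± 0.12, adjusted p = 0.66) and *Jun* (3288 ± 337 against 3633 ± 345 CPM, log2 fold change -0.14 ± 0.11, adjusted p = 0.39) did not pass.

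Chemokine ligands and receptors were lower in 11 and higher in 4 of 30 tested (median log2 fold change -0.10). Apart from *Ccl24*, the higher ligands were *Cxcl13*, which attracts B cells (2.17 ± 0.657 against 0.366 ± 0.249 CPM, log2 fold change 2.59 ± 0.57, adjusted p = 0.0042), and *Ccl8*, a monocyte and lymphocyte attractant (51.6 ± 7.75 against 29.7 ± 3.25 CPM, log2 fold change 0.80 ± 0.12, adjusted p = 0.00014). The last of them was *Cxcl14* (23.2 ± 4.39 against 13.6 ± 1.57 CPM, log2 fold change 0.78 ± 0.15, adjusted p = 0.0013). The lower ligands included *Ccl9* (35.7 ± 11.1 against 97 ± 14.4 CPM, log2 fold change -1.44 ± 0.23, adjusted p = 0.00018) and *Ccl12* (48.2 ± 14.5 against 101 ± 35.2 CPM, log2 fold change -1.06 ± 0.28, adjusted p = 0.011). The neutrophil attractants *Cxcl2* (753 ± 64.3 against 1083 ± 147 CPM, log2 fold change -0.52 ± 0.13, adjusted p = 0.0075) and *Cxcl3* (0.886 ± 0.309 against 2.95 ± 0.875 CPM, log2 fold change -1.73 ± 0.29, adjusted p = 0.00054) were lower as well. *Ccl22*, which binds CCR4 on T cells, was lower with 5.26, 3.8, 5.29 and 2.54 CPM against 23.1, 14.4, 55.9 and 13.5 CPM (log2 fold change -2.66 ± 0.38, adjusted p = 7.8e-05), and Tim-4-CD4- replicate 3 was far above its own subset. *Ccr7*, the receptor by which dendritic cells reach lymph nodes, was lower too (2.59, 2.29, 1.04 and 1.46 against 5.86, 3.43, 14.3 and 5.15 CPM, log2 fold change -1.95 ± 0.50, adjusted p = 0.0097). *Ccl2* (127 ± 19.6 against 189.7 ± 42.6 CPM, log2 fold change -0.58 ± 0.25, adjusted p = 0.11), *Ccl4* (431 ± 70.8 against 488 ± 45.2 CPM, log2 fold change -0.18 ± 0.14, adjusted p = 0.39) and *Cxcl9* (295 ± 21.6 against 213 ± 14.5 CPM, log2 fold change 0.47 ± 0.26, adjusted p = 0.22) did not pass. In a fit without Tim-4-CD4- replicate 3, the log2 fold change of *Ccl22* was -2.0 and *Ccr7* did not pass (log2 fold change -1.36, adjusted p = 0.064).

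Dendritic cells express *Ccr7*, *Ccl22* and *Flt3*, and their marker genes were looked at beside these. The summed level of 7 tested dendritic cell markers of 8 listed was 112 to 146 CPM in Tim-4+CD4+ libraries. In Tim-4-CD4- libraries it was 169, 119.6, 191 and 151 CPM. Of the 7, 1 was called higher and 2 lower. *Flt3*, the receptor that sustains dendritic cells, was lower in Tim-4+CD4+ cells, at 0.798, 0.465, 0.611 and 0.415 against 7.57, 4.41, 17.9 and 4.76 CPM (log2 fold change -3.90 ± 0.47, adjusted p = 1.2e-05). *Itgae*, the CD103 chain, was at 1.75, 2.80, 2.97 and 1.28 against 5.09, 5.43, 24.7 and 3.21 CPM (log2 fold change -2.12 ± 0.52, adjusted p = 0.0070). In both, Tim-4-CD4- replicate 3 was the highest library. *Xcr1*, which marks the cross-presenting type, was at 2.62 ± 0.666 against 2.83 ± 1.01 CPM (log2 fold change -0.11 ± 0.26, adjusted p = 0.82). *Siglech*, a gene of plasmacytoid cells, was higher in Tim-4+CD4+ libraries (8.46 ± 1.46 against 2.04 ± 0.555 CPM, log2 fold change 2.06 ± 0.41, adjusted p = 0.0014). The part of such cells in the difference of *Ccr7*, *Ccl22*, *Flt3* and *Itgae* was not tested. Without Tim-4-CD4- replicate 3, the log2 fold change of *Itgae* was -1.05.

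The CD209 family of C-type lectins, which bind sugars of microbes, was divided between the subsets. *Cd209f* was at 12.6, 8.19, 14.3 and 10.9 CPM in the Tim-4+CD4+ and 0.110, 0.235, 0.172 and 0.362 CPM in the Tim-4-CD4- libraries (log2 fold change 5.73 ± 0.52, adjusted p = 5.7e-07). Its neighbour *Cd209g* was at 4.55, 3.18, 5.13 and 2.75 against 0, 0.0670, 0.0862 and 0.0776 CPM (log2 fold change 6.09 ± 0.51, adjusted p = 8.0e-07). *Cd209b*, which encodes SIGN-R1, was higher as well (65.5 ± 13.4 against 12 ± 5.74 CPM, log2 fold change 2.46 ± 0.33, adjusted p = 3.6e-05). For *Cd209f* and *Cd209g* every Tim-4+CD4+ library lay above every Tim-4-CD4- library. *Cd209a* went the other way, with 6.25, 10.1, 7.86 and 6.73 against 31.8, 28.9, 67.7 and 27.6 CPM (log2 fold change -2.33 ± 0.31, adjusted p = 3.5e-05). *Cd209d* stood at 0.758 ± 0.309 against 0.627 ± 0.296 CPM (log2 fold change 0.29 ± 0.46, adjusted p = 0.71). Over the whole group of 22 tested lectins 5 were higher and 10 lower (median log2 fold change -0.15), and 4 of the higher ones belonged to the CD209 family. These genes lie side by side on chromosome 8 and resemble each other in sequence, and only uniquely mapped reads were counted.

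In the lectin cluster of chromosome 6, *Clec4n*, which encodes Dectin-2, was higher (324 ± 10.5 against 162 ± 5.16 CPM, log2 fold change 1.00 ± 0.12, adjusted p = 1.4e-05). *Clec12a*, an inhibitory receptor for uric acid crystals, was lower (9.65 ± 2.90 against 74.8 ± 14.2 CPM, log2 fold change -2.95 ± 0.18, adjusted p = 6.7e-09). Lower too were *Clec4b1* (3.12 ± 0.327 against 11.8 ± 2.57 CPM, log2 fold change -1.92 ± 0.19, adjusted p = 1.6e-06) and, by less, *Clec7a* for Dectin-1 (879 ± 34.9 against 1156 ± 59.6 CPM, log2 fold change -0.40 ± 0.08, adjusted p = 0.0024). The galactose-binding lectins *Mgl2* (198 ± 17.2 against 349 ± 34.1 CPM, log2 fold change -0.82 ± 0.14, adjusted p = 0.00052) and *Clec10a* (71.2 ± 17.4 against 103 ± 2.86 CPM, log2 fold change -0.53 ± 0.13, adjusted p = 0.0062) were lower too.

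Complement genes were higher in 6 and lower in 2 of 20 tested. *C2* was at 56.5, 35.1, 33.1 and 30.6 CPM in the Tim-4+CD4+ libraries and at 0.986, 0.720, 2.72 and 1.53 CPM in the Tim-4-CD4- libraries (log2 fold change 4.73 ± 0.39, adjusted p = 2.1e-07), and every Tim-4+CD4+ library lay above every Tim-4-CD4- library. *C2* is the protease that joins C4 to form the *C3* convertase. *C4b* was higher with it (179, 155, 184 and 143 against 36, 42.1, 63.5 and 48.8 CPM, log2 fold change 1.80 ± 0.30, adjusted p = 0.00032). So was the C1 inhibitor gene *Serping1* (9.67 ± 2.33 against 5.30 ± 0.946 CPM, log2 fold change 0.87 ± 0.22, adjusted p = 0.0074). *C3* itself was lower, at 38, 50.7, 56.2 and 41.5 against 122, 157, 132 and 126 CPM (log2 fold change -1.53 ± 0.14, adjusted p = 5.8e-07). *C1qa* (4069 ± 466 against 3462 ± 127 CPM, log2 fold change 0.23 ± 0.16, adjusted p = 0.34), and the anaphylatoxin receptor *C5ar1* (507 ± 43 against 577 ± 71.1 CPM, log2 fold change -0.19 ± 0.12, adjusted p = 0.27) did not pass. A pair of chains of complement receptors moved apart, *Itgam* being lower (209 ± 24.8 against 346 ± 20.7 CPM, log2 fold change -0.73 ± 0.09, adjusted p = 2.6e-05) and *Itgax* higher (1073 ± 84.6 against 689.9 ± 65 CPM, log2 fold change 0.64 ± 0.10, adjusted p = 0.00018). *C4b* and *Serping1* are also made by fibroblasts, whose markers *Col1a1* (39.5, 30.4, 24.9 and 33.2 against 14.7, 14.7, 25 and 23.2 CPM, log2 fold change 0.72 ± 0.19) and *Col3a1* (46.1 ± 7.53 against 27.2 ± 5.39 CPM, log2 fold change 0.76 ± 0.15) were higher in Tim-4+CD4+ libraries, and their part was not tested.

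Of 22 innate sensors tested, 3 were higher and 4 lower, against 11.3% and 11.9% of all genes tested. *Tlr2*, which senses bacterial lipoproteins, was at 41.8, 43.7, 42.9 and 34.6 CPM in the Tim-4+CD4+ and 94.3, 89.2, 94.4 and 103 CPM in the Tim-4-CD4- libraries (log2 fold change -1.22 ± 0.09, adjusted p = 9.7e-08). *Cd14*, the coreceptor for endotoxin, was lower (640.4 ± 99.4 against 1168 ± 95.9 CPM, log2 fold change -0.87 ± 0.12, adjusted p = 3.7e-05). *Tlr4* stood at 42.4 ± 13.1 against 42.1 ± 2.78 CPM (log2 fold change 0.01 ± 0.17, adjusted p = 0.98). The sensors of bacterial peptidoglycan *Nod1* (115 ± 9.82 against 67.8 ± 5.01 CPM, log2 fold change 0.76 ± 0.10, adjusted p = 2.5e-05) and *Nod2* (58.1 ± 8.24 against 41.5 ± 4.04 CPM, log2 fold change 0.49 ± 0.13, adjusted p = 0.012) were higher. *Nlrc4*, the flagellin-linked inflammasome gene, was higher as well (57 ± 6.78 against 43.5 ± 1.84 CPM, log2 fold change 0.39 ± 0.09, adjusted p = 0.0043). The count of lower members was 2 without Tim-4-CD4- replicate 2, 3 or 4 or Tim-4+CD4+ replicate 1 or 4.

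Receptors for adenosine and nucleotides differed in both directions. Of 19 purine signalling genes 11 were higher and 2 lower in Tim-4+CD4+ macrophages (median log2 fold change 0.40). *Adora3* was higher, at 38, 25.6, 40.7 and 26.6 CPM in the Tim-4+CD4+ and 8.69, 19.7, 9.10 and 11.6 CPM in the Tim-4-CD4- libraries (log2 fold change 1.41 ± 0.26, adjusted p = 0.00065). *Adora2a*, a receptor that raises cyclic AMP, was lower at 0.808, 0.465, 0.772 and 0.597 against 3.07, 2.60, 2.44 and 2.25 CPM (log2 fold change -1.98 ± 0.26, adjusted p = 3.7e-05), like *Adora2b* (log2 fold change -6.28 ± 0.57, adjusted p = 5.7e-07). For *Adora2a* every Tim-4+CD4+ library lay below every Tim-4-CD4- library, and for *Adora3* every Tim-4+CD4+ library lay above every Tim-4-CD4- library. *P2rx1*, an ATP-gated channel (22.6 ± 3.27 against 10.9 ± 1.57 CPM, log2 fold change 1.06 ± 0.13, adjusted p = 1.7e-05), and *P2ry13*, an ADP receptor (253 ± 31.2 against 158 ± 14.1 CPM, log2 fold change 0.68 ± 0.16, adjusted p = 0.0056), were higher. *P2rx7*, the channel that triggers the inflammasome, stood at 245 ± 42.5 against 227 ± 19.9 CPM (log2 fold change 0.11 ± 0.11, adjusted p = 0.50). *Adcy3*, an adenylate cyclase, was at 5.45, 7.57, 7.85 and 6.22 against 0.894, 0.938, 1.10 and 0.906 CPM (log2 fold change 2.82 ± 0.34, adjusted p = 1.1e-05). *Panx1*, the channel that releases ATP, was higher by less (60.4 ± 10.5 against 36.1 ± 5.44 CPM, log2 fold change 0.74 ± 0.13, adjusted p = 0.00043). Of the purine genes, *Adcy3* and *P2ry2* had been named by the study from these libraries.

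Enzymes of cholesterol synthesis were higher in 11 and lower in 0 of 15 tested (median log2 fold change 0.38), and the whole list, with its control and uptake genes, in 11 and 1 of 19. *Sqle* was at 40.3, 37, 31 and 49.5 CPM in the Tim-4+CD4+ libraries and at 21.6, 18.4, 21.6 and 19.4 CPM in the Tim-4-CD4- libraries (log2 fold change 0.96 ± 0.13, adjusted p = 5.1e-05). *Sqle* encodes squalene epoxidase, and every Tim-4+CD4+ library lay above every Tim-4-CD4- library. *Msmo1* (96.6 ± 13.9 against 53.2 ± 4.6 CPM, log2 fold change 0.86 ± 0.13, adjusted p = 9.7e-05), the lanosterol synthase *Lss* (14.2 ± 2.50 against 8.40 ± 0.414 CPM, log2 fold change 0.75 ± 0.18, adjusted p = 0.0046) and the early enzyme *Hmgcs1* (87.9 ± 13 against 59.3 ± 5.41 CPM, log2 fold change 0.57 ± 0.12, adjusted p = 0.0020) were higher too. *Insig1*, the sterol sensor partner, did not pass (165 ± 8.97 against 145 ± 6.08 CPM, log2 fold change 0.18 ± 0.10, adjusted p = 0.21). The count of higher members was 7 without Tim-4+CD4+ replicate 4, and the count of lower members was 0 without Tim-4-CD4- replicate 1, 2 or 3 or Tim-4+CD4+ replicate 1, 2 or 3.

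The upstream sequence of *Hmgcs1* (chr13:119690201-119690320, plus strand, 120 bases from 150 bases before the annotated start) is shown as a member with a sterol regulatory element core, CACCCCA, which was found on either strand in 1 of 10 synthesis enzymes with a window and in 7.64% of all genes with one. CCAAT was found in all 10 of those 10 enzymes within 250 bases. Capitals mark both.
*Hmgcs1*: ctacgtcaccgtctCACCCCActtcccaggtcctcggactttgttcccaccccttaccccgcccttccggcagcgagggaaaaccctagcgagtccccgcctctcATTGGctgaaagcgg

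Genes that move cholesterol out of the cell were higher in 4 and lower in 1 of 15 tested. The nuclear receptor *Nr1h3*, which encodes LXR-alpha (53.7 ± 8.32 against 36.8 ± 4.63 CPM, log2 fold change 0.55 ± 0.15, adjusted p = 0.013), and its partner *Rxra* (174 ± 14 against 83.9 ± 6.24 CPM, log2 fold change 1.05 ± 0.10, adjusted p = 7.5e-07) were higher. The exporter *Abcg1* was higher by a small margin (119 ± 5.32 against 94.5 ± 7.41 CPM, log2 fold change 0.33 ± 0.08, adjusted p = 0.0090). *Abca1*, another exporter, did not pass (189.7 ± 101 against 263 ± 53.5 CPM, log2 fold change -0.47 ± 0.27, adjusted p = 0.24). *Apoe*, the apolipoprotein that carries exported cholesterol, did not pass (32137 ± 5239 against 25158 ± 2021 CPM, log2 fold change 0.35 ± 0.17, adjusted p = 0.15). *Pltp*, the phospholipid transfer protein, was lower (386 ± 53.8 against 652 ± 55.8 CPM, log2 fold change -0.76 ± 0.12, adjusted p = 0.00013). With Tim-4+CD4+ replicate 3 left out, *Abca1* passed (log2 fold change -0.87, adjusted p = 0.0078).

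Genes of lipid-associated macrophages differed in both directions, 3 of 14 being higher and 6 lower. *Gpnmb* was at 188, 185, 202 and 214 CPM in the Tim-4+CD4+ libraries and at 14.7, 26.1, 13.5 and 17.4 CPM in the Tim-4-CD4- libraries (log2 fold change 3.45 ± 0.21, adjusted p = 7.0e-09). *Trem2* was at 11.1, 7.82, 6.98 and 5.04 CPM in the Tim-4+CD4+ libraries and at 30.9, 20.3, 23.3 and 25.1 CPM in the Tim-4-CD4- libraries (log2 fold change -1.68 ± 0.19, adjusted p = 6.4e-06). *Gpnmb* encodes a lysosomal glycoprotein that was higher in Tim-4+CD4+ cells, and *Trem2*, the lipid receptor of the same programme, was lower, with no overlap of the libraries in either. *Lpl*, the lipoprotein lipase, was lower at 27.1, 24.9, 26.7 and 19.1 against 78.3, 55.6, 50.7 and 60.4 CPM (log2 fold change -1.32 ± 0.17, adjusted p = 2.0e-05). So was the galectin gene *Lgals1* (14.2 ± 2.16 against 53.8 ± 2.92 CPM, log2 fold change -1.92 ± 0.13, adjusted p = 2.9e-08). The tetraspanin genes *Cd63* (322 ± 77.5 against 90.9 ± 8.21 CPM, log2 fold change 1.83 ± 0.19, adjusted p = 1.9e-06) and *Cd9* (229.8 ± 16.6 against 155 ± 5.76 CPM, log2 fold change 0.57 ± 0.08, adjusted p = 5.4e-05) were higher.

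Lysosomal genes, which digest what macrophages take up, were higher in 16 and lower in 2 of 39 tested, by small margins (median log2 fold change 0.18). Among the proteases, *Ctsd* was at 273, 219.9, 278 and 187 CPM in the Tim-4+CD4+ and 133, 188, 144 and 135 CPM in the Tim-4-CD4- libraries (log2 fold change 0.67 ± 0.16, adjusted p = 0.0050). *Ctsl* (459 ± 29 against 289.7 ± 22.2 CPM, log2 fold change 0.66 ± 0.09, adjusted p = 4.1e-05), *Ctsb* (5394 ± 735 against 3824 ± 441 CPM, log2 fold change 0.50 ± 0.11, adjusted p = 0.0037) and the tripeptidyl peptidase gene *Tpp1* (377 ± 20.5 against 247 ± 13.7 CPM, log2 fold change 0.61 ± 0.07, adjusted p = 1.1e-05) were higher as well. *Ctse*, an aspartic protease of the endosome, was lower (1.28 ± 0.258 against 2.54 ± 0.622 CPM, log2 fold change -0.98 ± 0.20, adjusted p = 0.0014). Among other hydrolases, the acid phosphatase *Acp5* (1223 ± 177 against 572 ± 13.5 CPM, log2 fold change 1.10 ± 0.11, adjusted p = 1.3e-06) and the beta-galactosidase *Glb1* (85.5 ± 9.56 against 63.9 ± 0.992 CPM, log2 fold change 0.42 ± 0.08, adjusted p = 0.0012) were higher. *Lyplal1*, a lysophospholipase-like protein that the list counts but that is not an established lysosomal enzyme, was higher too (2.96 ± 0.938 against 0.335 ± 0.115 CPM, log2 fold change 3.13 ± 0.50, adjusted p = 0.00022). The calcium channel gene *Mcoln1* was higher (95.4 ± 13.3 against 69.3 ± 3.08 CPM, log2 fold change 0.46 ± 0.10, adjusted p = 0.0020). The membrane proteins *Lamp1* (1575 ± 98.4 against 1405 ± 95.3 CPM, log2 fold change 0.17 ± 0.08, adjusted p = 0.13) and *Cd68* (528 ± 45.1 against 499 ± 19.4 CPM, log2 fold change 0.08 ± 0.09, adjusted p = 0.59) did not pass. The count of lower members was 1 without Tim-4-CD4- replicate 4.

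The E-box CACGTG is the core of the element that TFEB and its relatives bind in lysosomal promoters. It was found in the 250 upstream bases of 10 of 30 lysosomal genes with a window (33.3%), against 6.86% of all genes with a window and 9.50% of the tested ones, as a description with no test. The sequence reads the same on both strands. The 120 bases before the annotated start of *Glb1* (chr9:114400958-114401077, plus strand), *Mcoln1* (chr8:3500399-3500518, plus strand) and *Ctsd* (chr7:142387828-142387947, minus strand) are shown as genes that were higher and hold it, with the E-box in capitals.
*Glb1*: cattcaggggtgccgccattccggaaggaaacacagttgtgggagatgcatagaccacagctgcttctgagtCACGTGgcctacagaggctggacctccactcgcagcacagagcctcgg
*Mcoln1*: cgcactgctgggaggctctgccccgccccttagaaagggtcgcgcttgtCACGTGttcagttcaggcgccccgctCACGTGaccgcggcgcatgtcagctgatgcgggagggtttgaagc
*Ctsd*: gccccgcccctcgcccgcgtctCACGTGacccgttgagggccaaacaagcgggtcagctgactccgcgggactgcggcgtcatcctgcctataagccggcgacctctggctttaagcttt

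Genes of iron and heme handling were higher in 8 and lower in 1 of 18 tested (median log2 fold change 0.32), with *Slc40a1* and *Cd163* at their head. The ferroxidase ceruloplasmin, encoded by *Cp* and working with ferroportin, was higher at 178, 206, 227 and 213 against 78, 100.3, 82.7 and 106 CPM (log2 fold change 1.17 ± 0.12, adjusted p = 1.6e-06). The phagosomal iron transporter *Slc11a1* (638 ± 57.5 against 474 ± 9.41 CPM, log2 fold change 0.43 ± 0.10, adjusted p = 0.0041) and the biliverdin reductase *Blvrb* (118 ± 19.4 against 73.9 ± 5.04 CPM, log2 fold change 0.67 ± 0.14, adjusted p = 0.0021) were higher too. *Spic*, the transcription factor of iron-recycling macrophages, was higher as well (10.1 ± 0.858 against 5.86 ± 0.592 CPM, log2 fold change 0.78 ± 0.19, adjusted p = 0.0061). *Steap3*, an endosomal ferrireductase, was lower (1.29 ± 0.153 against 4.74 ± 0.555 CPM, log2 fold change -1.87 ± 0.19, adjusted p = 1.6e-06). The heme oxygenase gene *Hmox1* (182 ± 59.1 against 135 ± 58.2 CPM, log2 fold change 0.43 ± 0.28, adjusted p = 0.29) and the transferrin receptor gene *Tfrc* (31.7 ± 10.4 against 32 ± 4.50 CPM, log2 fold change -0.02 ± 0.21, adjusted p = 0.97) did not pass. In a fit without Tim-4-CD4- replicate 2, *Hmox1* passed (log2 fold change 0.78, adjusted p = 0.035).

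Of 16 transcription factors of macrophage identity, 3 were higher and 2 lower, against 11.3% and 11.9% of all genes tested. *Spi1* (515 ± 71.2 against 465 ± 14.8 CPM, log2 fold change 0.15 ± 0.10, adjusted p = 0.32) and *Cebpb* (957 ± 94.3 against 842 ± 138 CPM, log2 fold change 0.19 ± 0.18, adjusted p = 0.52) did not pass. Of all 34 factors tested, 3 were higher and 9 lower. The higher ones, besides *Spic*, were *Irf8* (745 ± 38.2 against 516 ± 36.4 CPM, log2 fold change 0.53 ± 0.08, adjusted p = 0.00019) and the Wnt effector *Tcf7l2* (54.7 ± 9.06 against 31.4 ± 3.08 CPM, log2 fold change 0.80 ± 0.18, adjusted p = 0.0036). The largest of the lower ones was *Klf8* (0.0389, 0.0344, 0.0322 and 0.0166 against 0.529, 0.402, 0.798 and 0.699 CPM, log2 fold change -4.18 ± 0.48, adjusted p = 7.8e-06). It was followed by *Stat4*, which carries interleukin-12 signals (2.18 ± 0.421 against 12.6 ± 1.74 CPM, log2 fold change -2.54 ± 0.20, adjusted p = 1.1e-07). *Mef2c* was lower by less (103 ± 24.6 against 152 ± 12.3 CPM, log2 fold change -0.57 ± 0.15, adjusted p = 0.011). The aryl hydrocarbon receptor gene *Ahr* stood at 147 ± 37.5 against 137 ± 5.86 CPM (log2 fold change 0.10 ± 0.15, adjusted p = 0.67). *Runx3* stood at 184 ± 27.8 against 200.4 ± 23.7 CPM (log2 fold change -0.13 ± 0.14, adjusted p = 0.58). *Stat4* and *Id3* had been named by the study from these libraries. Without Tim-4+CD4+ replicate 1, *Ahr* passed (log2 fold change 0.28, adjusted p = 0.013).

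Growth factor receptors were divided. *Csf1r* was at 6945, 6679.9, 6425 and 6657 CPM in the Tim-4+CD4+ libraries and at 4427, 4371, 4029 and 4271 CPM in the Tim-4-CD4- libraries (log2 fold change 0.64 ± 0.07, adjusted p = 3.7e-06). *Csf1r* is the receptor on which macrophage survival depends, and every Tim-4+CD4+ library lay above every Tim-4-CD4- library. The receptor chains for granulocyte-macrophage colony-stimulating factor, *Csf2ra* (855 ± 124 against 599 ± 10.1 CPM, log2 fold change 0.51 ± 0.11, adjusted p = 0.0026) and *Csf2rb* (771 ± 73.1 against 567 ± 12 CPM, log2 fold change 0.45 ± 0.09, adjusted p = 0.0019), were higher. So was *Csf2rb2*, a relative of *Csf2rb* (308 ± 29.8 against 194 ± 11.2 CPM, log2 fold change 0.67 ± 0.10, adjusted p = 0.00012). *Kit*, the stem cell factor receptor, was lower at 0.915, 1.93, 1.67 and 1.28 against 6.75, 5.18, 14 and 5.02 CPM (log2 fold change -2.42 ± 0.33, adjusted p = 4.0e-05). Of the death genes, *Fas* (1.95 ± 0.383 against 3.49 ± 0.164 CPM, log2 fold change -0.84 ± 0.15, adjusted p = 0.00048), *Bid* (11.6 ± 1.59 against 17.2 ± 0.817 CPM, log2 fold change -0.57 ± 0.10, adjusted p = 0.00068) and *Bbc3*, the gene of Puma (4.51 ± 1.2 against 7.69 ± 1.60 CPM, log2 fold change -0.78 ± 0.21, adjusted p = 0.012), were lower. The survival gene *Bcl2* stood at 27.2 ± 3.60 against 29.4 ± 2.08 CPM (log2 fold change -0.11 ± 0.10, adjusted p = 0.47). In the whole list 4 of 25 were higher and 7 lower.

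Genes of alternative activation by interleukin-4 and interleukin-13 were higher in 3 and lower in 7 of 19 tested (median log2 fold change -0.50). *Retnla*, which encodes a secreted resistin-like molecule, was at 1.54, 0.861, 2.43 and 0.796 CPM in Tim-4+CD4+ and 14.9, 8.29, 17.8 and 11.9 CPM in Tim-4-CD4- libraries (log2 fold change -3.24 ± 0.38, adjusted p = 2.1e-05), and every Tim-4+CD4+ library lay below every Tim-4-CD4- library. *Pdcd1lg2*, a ligand of PD-1, was higher (49.1 ± 5.5 against 24.7 ± 1.23 CPM, log2 fold change 0.99 ± 0.13, adjusted p = 2.3e-05). So was *Socs2* (21.2 ± 2.07 against 10.6 ± 1.07 CPM, log2 fold change 1.00 ± 0.22, adjusted p = 0.0026). *Arg1* stood at 0.195, 0.241, 0.225 and 0.216 against 1.44, 0.235, 0.151 and 0.155 CPM (log2 fold change -1.18 ± 0.83, adjusted p = 0.34). The receptor chain *Il4ra* stood at 461 ± 30.3 against 448 ± 23.8 CPM (log2 fold change 0.04 ± 0.13, adjusted p = 0.87). The set contains ligands, lectins and chemokines already described. *Retnla* had been named by the study from these libraries, so its direction is not independent evidence.

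Among genes of the respiratory burst and of microbial killing 2 of 21 were higher and 5 lower, against 11.3% and 11.9% of all genes tested. The extracellular glutathione peroxidase *Gpx3* was at 498, 336, 363 and 339 CPM against 46, 51.8, 39.6 and 39.4 CPM (log2 fold change 3.12 ± 0.20, adjusted p = 1.0e-08), and every Tim-4+CD4+ library lay above every Tim-4-CD4- library. Its intracellular relative *Gpx1* was lower (322 ± 51.4 against 480.2 ± 29.9 CPM, log2 fold change -0.58 ± 0.10, adjusted p = 0.00064). So was the superoxide dismutase *Sod2* (62.8 ± 4.18 against 83.6 ± 5.46 CPM, log2 fold change -0.41 ± 0.09, adjusted p = 0.0043). The oxidase subunits *Cybb* (1288 ± 249.9 against 1622 ± 74.1 CPM, log2 fold change -0.33 ± 0.12, adjusted p = 0.059) and *Ncf1* (395 ± 15.6 against 410.5 ± 25.7 CPM, log2 fold change -0.06 ± 0.08, adjusted p = 0.69) did not pass, nor did the nitric oxide synthase *Nos2* (0.180 ± 0.117 against 0.293 ± 0.138 CPM, log2 fold change -0.68 ± 0.74, adjusted p = 0.56). With Tim-4+CD4+ replicate 2 left out, *Cybb* passed (log2 fold change -0.42, adjusted p = 0.021).

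Growth factors for tissue cells were higher in 4 and lower in 4 of 18 tested. *Vegfa* was at 7.56, 7.97, 4.74 and 6.57 CPM in the Tim-4+CD4+ libraries and at 48.8, 48.2, 36.9 and 36.4 CPM in the Tim-4-CD4- libraries (log2 fold change -2.66 ± 0.17, adjusted p = 7.9e-09). *Vegfa* directs blood vessels and was lower in Tim-4+CD4+ cells, where every Tim-4+CD4+ library lay below every Tim-4-CD4- library. *Pdgfc*, a mitogen of mesenchymal cells, was higher (39.6 ± 4.15 against 11 ± 2.67 CPM, log2 fold change 1.85 ± 0.20, adjusted p = 3.1e-06). *Nrg1*, a ligand of ERBB receptors (1.14 ± 0.667 against 2.54 ± 0.545 CPM, log2 fold change -1.14 ± 0.31, adjusted p = 0.013), and *Csf1* (5.01 ± 0.298 against 7.79 ± 0.693 CPM, log2 fold change -0.64 ± 0.16, adjusted p = 0.0065) were lower. *Bmp2*, by which muscularis macrophages signal to enteric neurons, stood at 56.9 ± 13.2 against 62.1 ± 10.8 CPM (log2 fold change -0.12 ± 0.19, adjusted p = 0.69). *Hgf* stood at 19.8 ± 8.34 against 21.7 ± 2.81 CPM (log2 fold change -0.13 ± 0.26, adjusted p = 0.77).

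Matrix proteins and proteases were higher in 7 and lower in 9 of 21 tested. *Adamdec1*, a secreted protease of gut macrophages and stroma, was at 1964, 1698, 1695 and 1935 CPM in the Tim-4+CD4+ and 297, 252, 259.9 and 315 CPM in the Tim-4-CD4- libraries (log2 fold change 2.70 ± 0.17, adjusted p = 7.7e-09). Its chromosomal neighbour *Adam28* was at 4.93, 5.90, 4.05 and 5.57 against 0.183, 0.369, 0.237 and 0.0259 CPM (log2 fold change 4.59 ± 0.43, adjusted p = 2.3e-06). In both genes every Tim-4+CD4+ library lay above every Tim-4-CD4- library. The gelatinases *Mmp2* (298 ± 40.3 against 131 ± 21 CPM, log2 fold change 1.19 ± 0.17, adjusted p = 7.3e-05) and *Mmp9* (2157 ± 171 against 1533 ± 187 CPM, log2 fold change 0.49 ± 0.12, adjusted p = 0.0068) were higher. The macrophage elastase *Mmp12* (5.22 ± 1.82 against 25.5 ± 4.37 CPM, log2 fold change -2.28 ± 0.22, adjusted p = 1.0e-06) and *Adam8* (4.32 ± 1.31 against 11.5 ± 4.35 CPM, log2 fold change -1.41 ± 0.23, adjusted p = 0.00031) were lower. *Cd44*, the hyaluronan receptor of leukocytes, was lower too (276 ± 71.6 against 536 ± 58.9 CPM, log2 fold change -0.96 ± 0.16, adjusted p = 0.00032). The count of lower members was 5 without Tim-4-CD4- replicate 4 or Tim-4+CD4+ replicate 2.

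Adhesion molecules were lower in 11 and higher in 4 of 21 tested (median log2 fold change -0.39). *Itgb7* was at 16.6, 13.8, 16.3 and 11 CPM in the Tim-4+CD4+ libraries and at 110.2, 102, 111 and 88.5 CPM in the Tim-4-CD4- libraries (log2 fold change -2.83 ± 0.16, adjusted p = 1.8e-09). *Itgb7* is the partner of the alpha-4 chain in homing to the gut and of CD103 in binding to epithelium. *Itga6*, a laminin receptor chain (8.90 ± 1.89 against 29.2 ± 7.6 CPM, log2 fold change -1.71 ± 0.24, adjusted p = 5.5e-05), and *Icam2* (3.60 ± 0.83 against 7.43 ± 0.998 CPM, log2 fold change -1.04 ± 0.15, adjusted p = 8.6e-05) were lower. *Vcam1*, the counter-receptor of alpha-4 integrins, was higher at 98.6, 101, 171 and 89.7 against 37, 67, 51.5 and 48.2 CPM (log2 fold change 1.17 ± 0.23, adjusted p = 0.0011). So were *Cadm1* (316 ± 35.5 against 123 ± 11 CPM, log2 fold change 1.36 ± 0.18, adjusted p = 3.0e-05) and *Itgal*, the alpha chain of LFA-1 (199 ± 13.9 against 135 ± 8.36 CPM, log2 fold change 0.56 ± 0.09, adjusted p = 0.00016).

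Eicosanoid genes changed in opposite directions along their routes, with 5 higher and 6 lower of 18 tested. On the leukotriene side, *Alox5ap*, the activator of 5-lipoxygenase, was lower at 14.1, 14.9, 18.7 and 13.8 against 58.8, 48.8, 66.8 and 54.8 CPM (log2 fold change -1.90 ± 0.14, adjusted p = 8.3e-08). *Ltc4s*, which makes a cysteinyl leukotriene, was higher (93.7 ± 29.6 against 36 ± 4.07 CPM, log2 fold change 1.38 ± 0.19, adjusted p = 6.3e-05). On the prostaglandin side, the constitutive cyclooxygenase *Ptgs1* (1079.7 ± 59.1 against 749 ± 55.5 CPM, log2 fold change 0.53 ± 0.08, adjusted p = 0.00020) and the prostaglandin D synthase *Hpgds* (296 ± 14.3 against 161 ± 16.4 CPM, log2 fold change 0.88 ± 0.13, adjusted p = 8.7e-05) were higher. The inducible *Ptgs2* was lower (825 ± 198 against 1248 ± 153 CPM, log2 fold change -0.60 ± 0.17, adjusted p = 0.018). The prostaglandin E receptors *Ptger4* (54.1, 80.9, 80.3 and 72.9 against 205, 189.7, 184 and 179 CPM, log2 fold change -1.39 ± 0.14, adjusted p = 1.3e-06) and *Ptger3* (0.313 ± 0.213 against 4.13 ± 0.545 CPM, log2 fold change -3.75 ± 0.58, adjusted p = 0.00016) were lower. In a fit without Tim-4-CD4- replicate 2, *Ptgs2* did not pass (log2 fold change -0.53, adjusted p = 0.052).

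Among receptors for antibody, sialic acid and self ligands 6 of 25 were higher and 6 lower. *Slamf7* was at 19.6, 31, 24.4 and 17.8 CPM in the Tim-4+CD4+ and 116, 87.7, 113 and 88.4 CPM in the Tim-4-CD4- libraries (log2 fold change -2.12 ± 0.17, adjusted p = 1.7e-07). *Slamf8* was lower by less (103 ± 4.95 against 162 ± 7.49 CPM, log2 fold change -0.65 ± 0.15, adjusted p = 0.0046). The Siglec gene *Cd22* (288 ± 19.9 against 124 ± 4.29 CPM, log2 fold change 1.22 ± 0.10, adjusted p = 2.1e-07), the inhibitory receptor *Havcr2* for Tim-3 (178 ± 13.1 against 116 ± 14.3 CPM, log2 fold change 0.62 ± 0.11, adjusted p = 0.00045) and the neonatal Fc receptor *Fcgrt* (296 ± 66.6 against 176 ± 9.39 CPM, log2 fold change 0.75 ± 0.13, adjusted p = 0.00045) were higher. *Fcgr2b*, the inhibitory receptor for IgG, was lower (523 ± 46.3 against 671 ± 34.2 CPM, log2 fold change -0.36 ± 0.09, adjusted p = 0.0096). *Fcgr4* stood at 481 ± 61.4 against 411 ± 26.5 CPM (log2 fold change 0.23 ± 0.22, adjusted p = 0.51). *Slamf7* had been named by the study from these libraries, so its direction is not independent evidence.

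Genes of antigen presentation were called in both directions, with 5 higher and 3 lower of 26 tested (median log2 fold change -0.13), against 11.3% and 11.9% of all genes tested. The class II genes *H2-Ab1* (15533, 11911, 10709 and 10521 against 12780.0, 14863, 13577 and 13545 CPM, log2 fold change -0.17 ± 0.23, adjusted p = 0.65) and *H2-Aa* (8948 ± 1538 against 10873 ± 449 CPM, log2 fold change -0.28 ± 0.22, adjusted p = 0.39) did not pass. The class II chaperone gene *Cd74* (29226 ± 7121 against 33499 ± 2353 CPM, log2 fold change -0.20 ± 0.21, adjusted p = 0.55) and the regulator *Ciita* (443 ± 90.4 against 535 ± 64.3 CPM, log2 fold change -0.27 ± 0.24, adjusted p = 0.45) did not pass. Cells had been sorted as MHCII+, which limits what class II can show. The class I-like gene *H2-M2* was at 88.9, 67.2, 101 and 121 CPM against 3.63, 5.36, 3.49 and 4.92 CPM (log2 fold change 4.44 ± 0.27, adjusted p = 4.9e-09). It had been named by the study from these libraries, so its direction is not independent evidence. *H2-Ob*, a brake on class II loading, was lower (11.8 ± 1.64 against 27.4 ± 5.76 CPM, log2 fold change -1.21 ± 0.15, adjusted p = 2.0e-05). Of 6 costimulation and checkpoint genes 4 were higher and 0 lower, among them *Icosl* (200.1 ± 24.4 against 141 ± 9.95 CPM, log2 fold change 0.51 ± 0.10, adjusted p = 0.0017). *Cd86* stood at 122 ± 2.96 against 111 ± 7.54 CPM (log2 fold change 0.14 ± 0.08, adjusted p = 0.21). The count of lower members was 1 without Tim-4-CD4- replicate 3 or 4.

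Interferon-stimulated genes were called in both directions, 2 of 27 being higher and 3 lower, which are shares below or near those of all genes. *Isg15* (197 ± 42.2 against 115 ± 7.44 CPM, log2 fold change 0.78 ± 0.19, adjusted p = 0.0055) and *Oasl1* (70.1 ± 6.75 against 41.3 ± 10.1 CPM, log2 fold change 0.76 ± 0.18, adjusted p = 0.0047) were higher. *Usp18* (17.8 ± 3.09 against 30.1 ± 4.49 CPM, log2 fold change -0.76 ± 0.15, adjusted p = 0.0013), *Oas3* (29.9 ± 8.03 against 54.7 ± 8.27 CPM, log2 fold change -0.87 ± 0.21, adjusted p = 0.0061) and *Ifitm3* (208 ± 39.2 against 355 ± 39.1 CPM, log2 fold change -0.77 ± 0.16, adjusted p = 0.0018) were lower. *Ifit1* did not pass (23.4 ± 3.09 against 26.2 ± 3.60 CPM, log2 fold change -0.16 ± 0.14, adjusted p = 0.45).

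In energy metabolism, glycolysis genes were lower in 8 and higher in 3 of 22 tested, and respiratory chain genes were lower in 4 and higher in 0 of 26. Of all genes tested, 11.9% were lower and 11.3% higher. The glucose transporter *Slc2a3* (3.15 ± 0.398 against 7.80 ± 2.58 CPM, log2 fold change -1.31 ± 0.22, adjusted p = 0.00034) and the lactate exporter *Slc16a3* (4.38, 6.10, 3.59 and 3.96 against 12.2, 11.6, 14.2 and 10.2 CPM, log2 fold change -1.41 ± 0.15, adjusted p = 4.2e-06) were lower. So was the phosphofructokinase *Pfkp* (27.4 ± 1.72 against 45.6 ± 3.14 CPM, log2 fold change -0.73 ± 0.11, adjusted p = 0.00018). The hexokinase *Hk3* was higher (304 ± 36 against 167 ± 6.37 CPM, log2 fold change 0.86 ± 0.12, adjusted p = 4.3e-05). Of the 22 glycolysis genes, 11 were not called, and the median log2 fold change was -0.135. Their summed levels overlapped, at 2974.5 to 3421.0 CPM in Tim-4+CD4+ and 3127.1 to 3391.1 CPM in Tim-4-CD4- libraries. The count of lower respiratory chain members was 1 without Tim-4-CD4- replicate 3 or 4 or Tim-4+CD4+ replicate 2, 2 without Tim-4+CD4+ replicate 3 or 4 and 13 without Tim-4+CD4+ replicate 1.

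Markers of other cells of the gut wall were looked at in both subsets. For T cells the summed level of 10 tested markers was 7.53 to 10.1 CPM in Tim-4+CD4+ and 4.92 to 9.15 CPM in Tim-4-CD4- libraries, with 1 of them higher and 0 lower, so that the *Cd4* of Tim-4+CD4+ libraries stood beside a *Cd3e* of 1.45 ± 0.231 against 0.787 ± 0.238 CPM. B and plasma cell markers summed to 3150.4 to 7533 CPM in Tim-4+CD4+ and 4097 to 5834 CPM in Tim-4-CD4- libraries, carried by immunoglobulin genes, and 0 of 9 were called. Epithelial markers summed to 13.2 to 21.5 CPM in Tim-4+CD4+ libraries and to 9.13, 14.8, 26.6 and 11.5 CPM in Tim-4-CD4- libraries. Of 8 tested, 2 were called higher and 1 lower. Tim-4-CD4- replicate 3, the highest here, was also the highest library in *Flt3*, *Itgae* and *Ccl22*. Granulocyte and mast cell markers summed to 11.2 to 17.3 CPM in Tim-4+CD4+ and 5.78 to 9.36 CPM in Tim-4-CD4- libraries, and 1 of 5 tested was called higher and 0 lower. Endothelial markers summed to 308 to 373 CPM in Tim-4+CD4+ and 118 to 145 CPM in Tim-4-CD4- libraries, where only *Pecam1* was called (305 ± 24.4 against 104 ± 1.77 CPM, log2 fold change 1.56 ± 0.14), a gene that macrophages also express, and *Cdh5* stood at 5.24 ± 0.996 against 4.58 ± 1.35 CPM. Markers of enteric neurons and glia summed to 6.27 to 8.03 CPM in Tim-4+CD4+ and 2.18 to 4.13 CPM in Tim-4-CD4- libraries, of which *Elavl4* was called higher (3.88 ± 1.26 against 0.167 ± 0.0760 CPM, log2 fold change 4.55 ± 0.45) and *Sox10* (0.577 ± 0.134 against 0.321 ± 0.114 CPM) was not. Antibodies to TCRβ, B220, Siglec F and Ly6G were used in the sort to exclude lymphocytes and granulocytes, and the marker RNA given above was counted all the same. The part of these cells in the differences above was not tested.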

How the data were processed

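RNA was sequenced from sorted mouse cells with an Illumina TruSeq Stranded mRNA kit. The authors trimmed reads with Trimmomatic (version 0.36), aligned them with STAR to GRCm38.p4, kept uniquely mapped reads and counted them per GENCODE gene with HTSeq (version 0.6.1p1). Whether HTSeq used the strand was not given in the sources used here, so the reads of genes that overlap on opposite strands may not be told apart. The deposited table holds raw counts for 19456 genes in 15 libraries. A second block of 15 columns with the same names was not used.

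Counts were analysed in edgeR (version 4.0.16, R version 4.3.3) with 1 fit over the 15 libraries and their 4 populations, after filterByExpr by population and TMM scaling, with the quasi-likelihood test of Tim-4+CD4+ minus Tim-4-CD4- libraries and Benjamini-Hochberg adjustment over the 15802 genes tested. A gene was called at an adjusted p under 0.05, and 5460 genes had an unadjusted p under 0.05. The standard error is the size of the log2 fold change over the square root of the F statistic. Replicates were pools of mice, and no library was close to a copy of another. The script was tested on simulated data.

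The comparison, its gene lists and the genes named were chosen with earlier results of these data known, and some list members had been named by the study. The naming rule took the marker genes, in each direction the 12 called genes of largest log2 fold change whose libraries did not overlap and whose mean over the 8 libraries reached 1 CPM, the key members of each list, and up to 3 further called members per list role and direction. It named 352 genes, of which the text prints 266, selected with their values seen; some named by the rule are not reported here. Gene positions are those of GENCODE M21 (GRCm38), where 19421 of 19456 identifiers were found. Upstream windows came from RefSeq (GRCm38.p6), and promoters of genes without a window are not shown. The alternatives were DESeq2 (version 1.42.0), RLE scaling, no filter, the 8 libraries alone, a replicate block, a 2-fold minimum and leaving out each library.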

Additional observations from a re-analysis of the deposited data

Results flagged for a closer look

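Each printed gene was looked at in both subsets for a library that stood apart from the other 3 by Dixon's criterion, which chance meets in about 1 in 20 groups. Of 532 groups of 4 libraries, 37 (6.95%) met it.

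Tim-4+CD4+ replicate 1 was the highest of its subset in *Gpx3* (498 CPM, the others 336 to 363), *Il1b* (3592 CPM, the others 2648 to 2704), *Ltc4s* (138 CPM, the others 73.6 to 83.9), *Ly6c2* (1.05 CPM, the others 0.611 to 0.628), *Mmp2* (357 CPM, the others 268 to 283) and *Panx1* (76.2 CPM, the others 54.5 to 55.6). Tim-4+CD4+ replicate 1 was the lowest of its subset in *Ahr* (91.2 CPM, the others 159.9 to 170.4), *Hgf* (7.33 CPM, the others 23.2 to 25.2), *Nlrp3* (234 CPM, the others 266 to 268) and *Tgfbr2* (323 CPM, the others 444 to 469). Tim-4+CD4+ replicate 2 was the highest of its subset in *Adora2b* (0.0602 CPM, the others at 0), *Nrg1* (2.13 CPM, the others 0.701 to 0.884) and *Rgs18* (0.138 CPM, the others 0.0643 to 0.0681). Tim-4+CD4+ replicate 2 was the lowest of its subset in *Cd86* (118 CPM, the others 123 to 124). Tim-4+CD4+ replicate 3 was the highest of its subset in *Bbc3* (6.29 CPM, the others 3.81 to 4.11), *Hmox1* (269.6 CPM, the others 142 to 161), *Lyve1* (37.2 CPM, the others 17.7 to 19.3), *Nusap1* (5.23 CPM, the others 2.73 to 2.99), *Stab2* (17.2 CPM, the others 7.94 to 9.21) and *Vcam1* (171 CPM, the others 89.7 to 101).

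Tim-4-CD4- replicate 1 was the highest of its subset in *Arg1* (1.44 CPM, the others 0.151 to 0.235) and *Cxcl14* (15.9 CPM, the others 12.7 to 12.9). Tim-4-CD4- replicate 2 was the highest of its subset in *Irf8* (569.9 CPM, the others 493 to 504), *Runx3* (236 CPM, the others 187 to 191) and *Sod2* (91.7 CPM, the others 80.3 to 81.4). Tim-4-CD4- replicate 2 was the lowest of its subset in *Angptl7* (0.0335 CPM, the others 0.181 to 0.194) and *Itga6* (17.9 CPM, the others 31.7 to 34.5). Tim-4-CD4- replicate 3 was the highest of its subset in *C1qa* (3652 CPM, the others 3393 to 3411), *Cd209a* (67.7 CPM, the others 27.6 to 31.8), *Itgae* (24.7 CPM, the others 3.21 to 5.43) and *Mcm2* (34.5 CPM, the others 29.2 to 29.8). Tim-4-CD4- replicate 3 was the lowest of its subset in *Cd22* (117 CPM, the others 125 to 127), *Cxcl2* (864 CPM, the others 1146 to 1176), *Fcgrt* (162 CPM, the others 180.4 to 182) and *Il1a* (48.7 CPM, the others 68.1 to 71.8). Tim-4-CD4- replicate 4 was the highest of its subset in *Spock1* (1.09 CPM, the others 0.310 to 0.388). Tim-4-CD4- replicate 4 was the lowest of its subset in *Hp* (1.53 CPM, the others 1.81 to 1.83).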

How the results depend on the processing

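With DESeq2, 2258 genes were higher and 1958 lower, among them 1778 and 1834 of the edgeR calls. RLE scaling gave 1922 and 1712, no filter on low counts 1729 and 1666, and a fit of the 8 libraries alone 1666 and 1505. When a fold change of at least 2 was also required, 739 higher and 597 lower genes were left, since that removes the smaller differences. With 1 library left out at a time, 1442 to 1852 genes were higher and 1445 to 1947 lower. The share of higher genes among the calls was 48.7% at first and 53.6% with DESeq2. Of the 266 genes printed, 240 kept their direction and their side of the threshold in every alternative but the 2-fold minimum, which was applied to the counts of calls alone.

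The replicate numbers of the labels were checked for pairing. Deviations from the subset means of same-numbered libraries had correlations of 0.0582, -0.0533, -0.0749 and 0.128, so that the numbers were not taken to pair the libraries. Not every library correlated best with its own number. The largest correlation was 0.184, between Tim-4-CD4- replicate 2 and Tim-4+CD4+ replicate 3. Next came 0.135, between Tim-4-CD4- replicate 3 and Tim-4+CD4+ replicate 2. A pairing in an order other than that of the numbers was not tested. Whether same-numbered libraries came from 1 sort was not given in the sources used here. With the replicate number as a block in the fit of the 8 libraries, 1364 genes were higher and 1279 lower, 1297 and 1229 of them among the calls without it. Under the block *Abcg1* (adjusted p = 0.053) and *Ccl12* (adjusted p = 0.065) did not pass, and *Ccl2*, *Cxcl9* and *Ly6c2* did (edgeR's quasi-likelihood test, adjusted p = 0.011, 0.013 and 0.031).

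The genes whose direction turned in some alternative were not called in any. Over the fits with 1 library left out the log2 fold changes ran for *Arg1* from -1.47 to 0.276, *Cdkn1a* from -0.0135 to 0.134, *Hgf* from -0.274 to 0.145, *Il10ra* from -0.0268 to 0.0712, *Mrc1* from -0.15 to 0.0893, *Tfrc* from -0.15 to 0.201, *Tgfbr2* from -0.101 to 0.0583, *Tlr4* from -0.132 to 0.21 and *Xcr1* from -0.256 to 0.159. The log2 fold change of *Tfrc* was 0.00563 with DESeq2 and 0.00573 with RLE scaling, and the log2 fold change of *Tlr4* was -0.0333 under the replicate block. The cause was not tested. In the fit of the 8 libraries *Apoe*, *Ccl2*, *Cxcl9* and *Ly6c2* also passed (adjusted p = 0.039, 0.029, 0.0024 and 0.010), as did *Cd3e* and *Lamp1* with DESeq2 (adjusted p = 0.017 and 0.047). Libraries of 39388763 to 116123886 counts leave genes such as *Nos2* and *Arg1*, under 1 CPM in most libraries, with wide errors, and 4 pools a subset limit the differences that can be called.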
